A study of Mus musculus with 29 samples.

Results

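When Gfi1, Pou4f3 and Atoh1 were induced together in mouse embryonic stem cells, 804 of the 3003 sites with a Gfi1 peak also had an Atoh1 peak and had no Pou4f3 peak. The 804 sites were spread over 735 nearest genes, and most of them had an Atoh1 peak in other lines as well, including lines that carried no Gfi1 transgene. They were obtained by centring a window of 300 bp on every peak summit of the Gfi1, Atoh1 and Pou4f3 lists of the triple line and uniting windows that had at least 1 bp in common, which gave 42185 sites in all. The sites were thus chosen by the presence or absence of peaks in these 3 lists, which also holds the Gfi1 and Atoh1 summits to under 300 bp of each other, so the values of these lists are given as a description. Among all 25931 iGPA Atoh1 sites, 1312 or 5.06% had a Gfi1 peak, with Pou4f3 or without it. The peaks of the other lines, the patterns in the sequence and the position in the genome were not used to choose them.

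The lists came from ChIP-seq, in which DNA fragments crosslinked to a protein are precipitated with an antibody and sequenced, with 17 ChIP libraries and 12 input libraries from 6 lines derived from A2loxCre mouse embryonic stem cells. Each line carried 1 doxycycline-inducible cassette that ended in a Venus reporter and held Atoh1 (iAtoh1), Pou4f3 (iPou4f3), Gfi1 with Pou4f3 (iG+P), Gfi1 with Atoh1 (iG+A), Pou4f3 with Atoh1 (iP+A) or all 3 (iGPA). Embryoid bodies, floating clumps in which stem cells begin to differentiate and which are no inner ear tissue, received doxycycline (2 µg/ml) at day 4 and were harvested 48 h later, at day 6. A FLAG tag served to precipitate Atoh1 and a MYC tag Pou4f3. Gfi1 was untagged and was precipitated with an antibody raised against it, in iGPA only and in 1 library, whereas every other ChIP group had 2, from different clones of the line. Every line received doxycycline. Peaks had been called on merged replicates, or on the 1 library for Gfi1, so no value below has a spread between replicates, and the intervals given are exact 95% binomial intervals that cover counting error only. Sites are not replicates of a line, and no p-value was computed.

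Atoh1 is a basic helix-loop-helix (bHLH) transcription factor that binds E-boxes, short DNA elements of the form CANNTG, with an E protein as partner, and it is required for hair cells to form in the inner ear. Gfi1 is a zinc-finger protein with a repressor domain that recognises DNA with an AATC core, and Pou4f3 is a POU-homeodomain factor. Both are needed for hair cells to survive. A site with Gfi1 and Atoh1 peaks may carry the DNA element of either factor, of both or of neither.

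The sequences of a few sites show these cases. They are from the plus strand of mouse build mm9 (the same assembly as NCBIM37), and the first 2 lie in introns of Notch1 and Camkk1. They have the highest Gfi1 fold enrichment among the sites with AtEAM, the E-box variant described for Atoh1 in cerebellum. The next 2, in an intron of Oxr1 and 73 bp upstream of Ankrd40, have the highest fold among those with the Gfi1 pattern AATCACAGC or AATCACTGC, and those of Zc3h14 and Fam110b among those with both patterns. The last lies 169079 bp from the start of Cntnap3 and has the highest Gfi1 fold of all, in a short tandem repeat. Capitals mark the matches of the 2 patterns on either strand, and in the repeat there was no match.
Notch1, AtEAM, chr2:26342370-26342503: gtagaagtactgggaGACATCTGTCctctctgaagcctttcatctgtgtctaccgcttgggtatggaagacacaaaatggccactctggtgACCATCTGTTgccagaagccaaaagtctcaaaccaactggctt
Camkk1, AtEAM, chr11:72845241-72845335: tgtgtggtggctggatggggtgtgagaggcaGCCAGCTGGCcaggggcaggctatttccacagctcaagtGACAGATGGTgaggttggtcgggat
Oxr1, Gfi1 pattern, chr15:41347352-41347392: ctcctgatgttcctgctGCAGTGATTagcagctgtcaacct
Ankrd40, Gfi1 pattern, chr11:94189198-94189292: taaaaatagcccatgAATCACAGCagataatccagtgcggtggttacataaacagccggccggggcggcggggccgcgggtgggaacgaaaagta
Zc3h14, both, chr12:99983899-99983968: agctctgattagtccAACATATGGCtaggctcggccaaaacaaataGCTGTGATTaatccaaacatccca
Fam110b, both, chr4:5722248-5722322: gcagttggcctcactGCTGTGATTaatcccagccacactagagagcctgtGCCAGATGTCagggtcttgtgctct
Cntnap3, repeat, chr13:64836067-64836166: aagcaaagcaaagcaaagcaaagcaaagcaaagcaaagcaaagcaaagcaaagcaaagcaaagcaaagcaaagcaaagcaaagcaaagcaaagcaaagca

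The height of the peaks was moderate for Gfi1 and above the middle of the list for Atoh1. Fold enrichment is the authors' ratio of the ChIP fragments at a summit to the local background. At the 804 sites the Gfi1 fold ran from 1.96 to 112 with a median of 4.18, and the iGPA Atoh1 fold ran from 2 to 43.9 with a median of 4.06. The Atoh1 sites with neither Gfi1 nor Pou4f3, called Atoh1 alone below, had a median Atoh1 fold of 3.45, and the 1484 sites of Gfi1 alone had a median Gfi1 fold of 4.4. The median site stood at percentile 41.3 of the Gfi1 list and at percentile 66.3 of the iGPA Atoh1 list. Both folds were related weakly (Spearman's rho 0.341 over 804 sites, a description across sites that share the same libraries). The depth behind a Gfi1 peak was small, with a median of 21 fragments at the summit against 37 for Atoh1, as recovered from the fold and the p-value of each peak.

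The first question was whether Atoh1 was found at these places in lines that carried no Gfi1 transgene. Of the 804 sites, 467 had an Atoh1 peak in iAtoh1, which is 58.1% (54.6 to 61.5), where 31.3% of all 25931 iGPA Atoh1 sites had one. In iG+A, which has a Gfi1 but no Pou4f3 transgene, 578 sites or 71.9% (68.6 to 75) had an Atoh1 peak, against 41.5% of all iGPA Atoh1 sites. In iP+A, which has a Pou4f3 but no Gfi1 transgene, 516 sites or 64.2% (60.8 to 67.5) had one, against 41.9%. The Atoh1 list was longest in iG+A, with 20504 kept peaks, followed by 18949 in iP+A and 15568 in iAtoh1, and a longer list meets more sites. The part of list length in the order of the lines was not tested.

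The 21172 sites of Atoh1 alone served as the reference, since they have the iGPA Atoh1 peak and lack the Gfi1 peak. They had an Atoh1 peak at 32.4% in iAtoh1, 43.7% in iG+A and 37.2% in iP+A. The sites with Gfi1 were higher by 25.7 percentage points in iAtoh1 (Newcombe 95% interval 22.2 to 29.1). The differences were 28.2 points (24.9 to 31.3) for iG+A and 27 points (23.5 to 30.3) for iP+A. Each of these differences had the same sign on 19 of the 19 chromosomes that held at least 10 of the sites. The 3 differences had overlapping intervals. The excess was thus present in the lines without a Gfi1 transgene as well as in iG+A, which carries one. Gfi1 was precipitated in iGPA only, so whether it was at these sites in the other lines was not tested.

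Against the 508 sites with all 3 factors the order changed with the line. The sites with Gfi1 and Atoh1 were higher by 26.2 percentage points in iAtoh1 (20.8 to 31.3) and by 35.3 in iG+A (29.9 to 40.3), each on 17 of 18 chromosomes. In iP+A they were lower, with 64.2% against 79.5%, a difference of -15.3 percentage points (-20.1 to -10.4) on 18 of 18 chromosomes. Pou4f3 peaks in iGPA separate these 2 groups of sites by their definition.

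**Figure D1:**
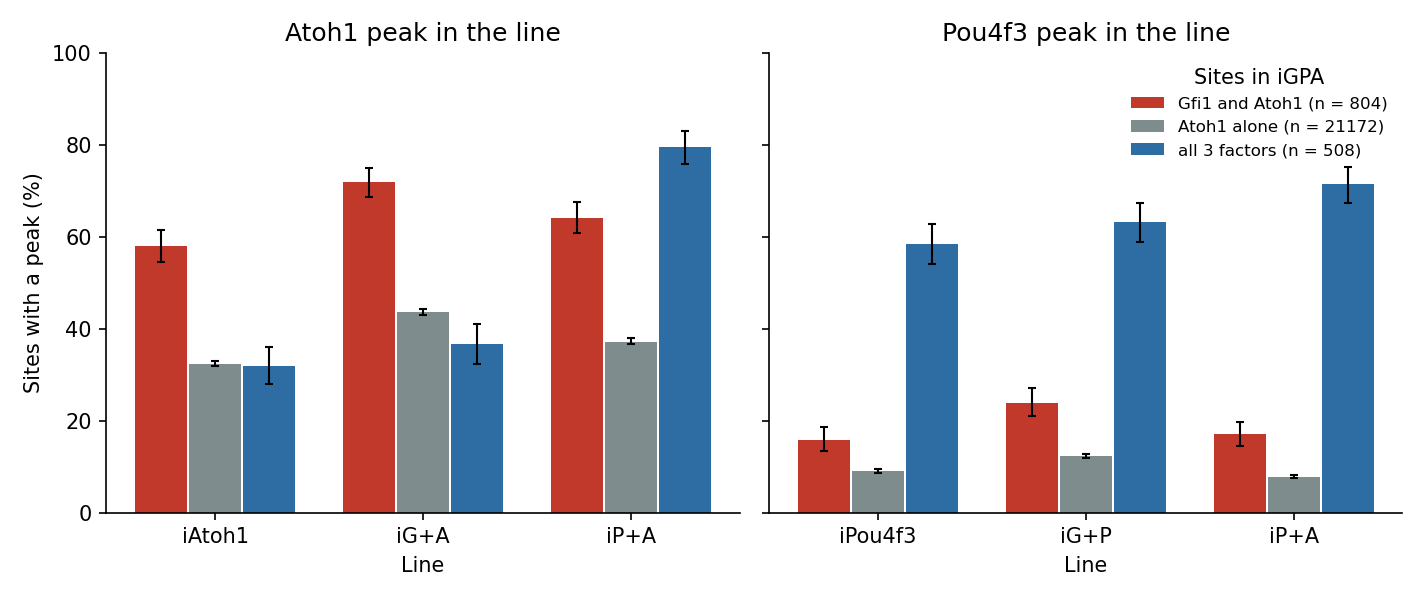
Percentage of sites (y axis, 0 to 100%) with an Atoh1 peak (left) or a Pou4f3 peak (right) in each other line (x axis), for sites of Gfi1 and Atoh1, of Atoh1 alone and of all 3 factors, with exact 95% binomial intervals as error bars. The sites of Gfi1 and Atoh1 stand at 58.1%, 71.9% and 64.2% on the left, above Atoh1 alone in every line, and of these 3 only the iP+A value is below that of the sites with all 3 factors.

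Across the 3 other lines together, 709 of the 804 sites had an Atoh1 peak in at least 1. All 3 lines had one at 342 sites, 42.5% (39.1 to 46), against 17.6% of Atoh1 alone and 17.7% of all iGPA Atoh1 sites. None of the 3 had one at 95 sites, 11.8% (9.67 to 14.3), against 38.6% of Atoh1 alone and 36.5% of all iGPA Atoh1 sites. A peak in iG+A and in no other of the 3 lines was found at 111 sites, 13.8% (11.5 to 16.4), which is within its interval of the 13.5% of Atoh1 alone. The iAtoh1 peak was the only one at 28 sites, 3.48% against 4.31% of Atoh1 alone. The iP+A peak was the only one at 60, 7.46% against 9.31%. Where iG+A and iAtoh1 disagreed, 182 sites had the peak in iG+A only and 71 in iAtoh1 only (interval of the iG+A share 66% to 77.4%). At Atoh1 alone iG+A held 73.7% of such sites within 1 kb of a start and 68.4% of the others. The corresponding numbers were 165 and 103 for iG+A against iP+A, and 131 and 82 for iP+A against iAtoh1.

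**Figure D2:**
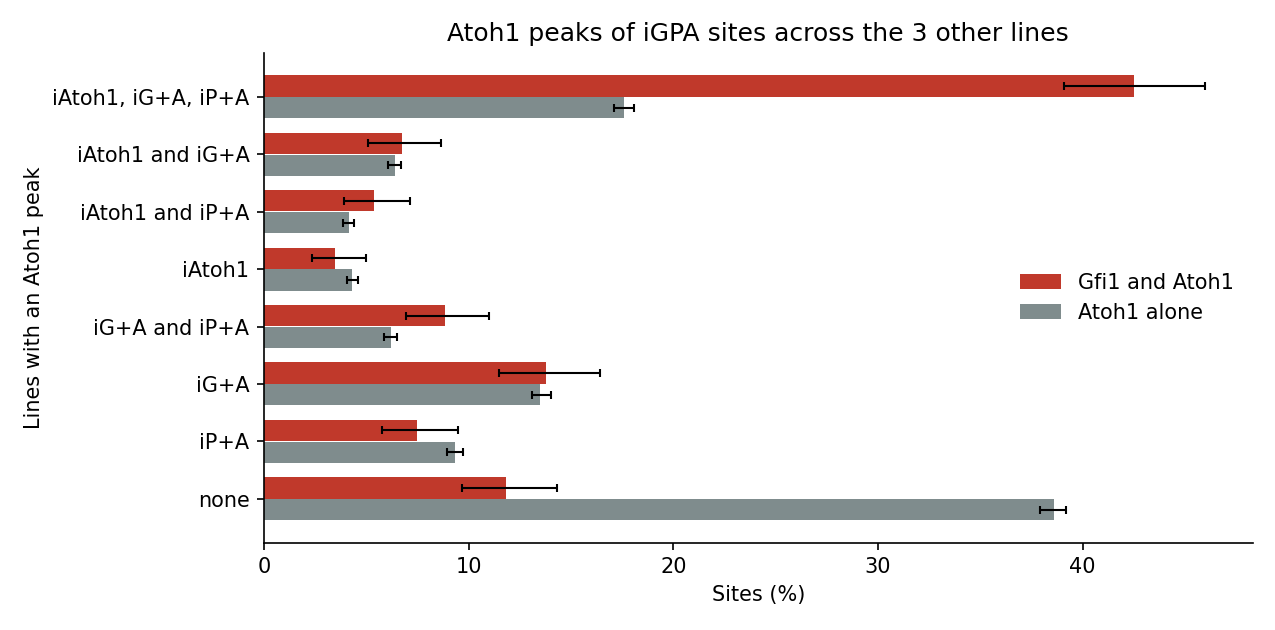
Percentage of sites (x axis) for each combination of the 3 other lines with an Atoh1 peak (y axis), for 804 sites of Gfi1 and Atoh1 and 21172 sites of Atoh1 alone, with exact 95% binomial intervals. The largest gaps are at the sites with a peak in all 3 lines, 42.5% against 17.6%, and in none, 11.8% against 38.6%.

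The sites found in all lines and those found in iGPA only differed in the height of the iGPA Atoh1 peak, and little in that of the Gfi1 peak. The median iGPA Atoh1 fold was 7.01 at the 342 sites present in every Atoh1 list and 3.2 at the 95 sites found in iGPA only. The median Gfi1 fold was 4.4 (quartiles 3.75 and 5.4) and 4.2 (3.7 and 5.28) in the same order. Where the peak was present, its median fold was 4.15 in iAtoh1, 4.53 in iG+A and 3.93 in iP+A, and the median site stood at percentile 81.8, 83.9 and 77.4 of those lists. Folds of different lists rest on different libraries and were not compared with each other. The Atoh1 summit lay close to the iGPA one in each line, with a median offset of 24 bp in iAtoh1, 22 bp in iG+A and 24 bp in iP+A. Atoh1 alone had 24, 25 and 26 bp in the same order, and the matching holds every offset under 300 bp.

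Since high peaks are found again more often, the comparison with Atoh1 alone was repeated within 5 bins of the iGPA Atoh1 fold, cut at 2.89, 3.2, 3.69 and 4.8. The share of Atoh1 sites without Pou4f3 that carried Gfi1 was 2.52%, 2.42%, 2.82%, 3.39% and 7.28% from the lowest to the highest bin. In iAtoh1 the sites with Gfi1 exceeded Atoh1 alone by 23.2 percentage points in the lowest bin (14.2 to 32.6), by 11.1 in the next to highest (2.91 to 19.5) and by 13.4 in the highest (8.72 to 17.4). In iG+A the 5 differences ran from 12.1 to 27.7 and in iP+A from 14.2 to 22.3, and none of the 15 intervals over the 3 lines included 0. Weighted by the sites of Gfi1 and Atoh1, the iAtoh1 difference within bins was 15.7 percentage points, against 25.7 without bins. In the highest bin, 83.5% of the sites had an Atoh1 peak in iAtoh1, 96.5% in iG+A and 87.7% in iP+A.

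**Figure D3:**
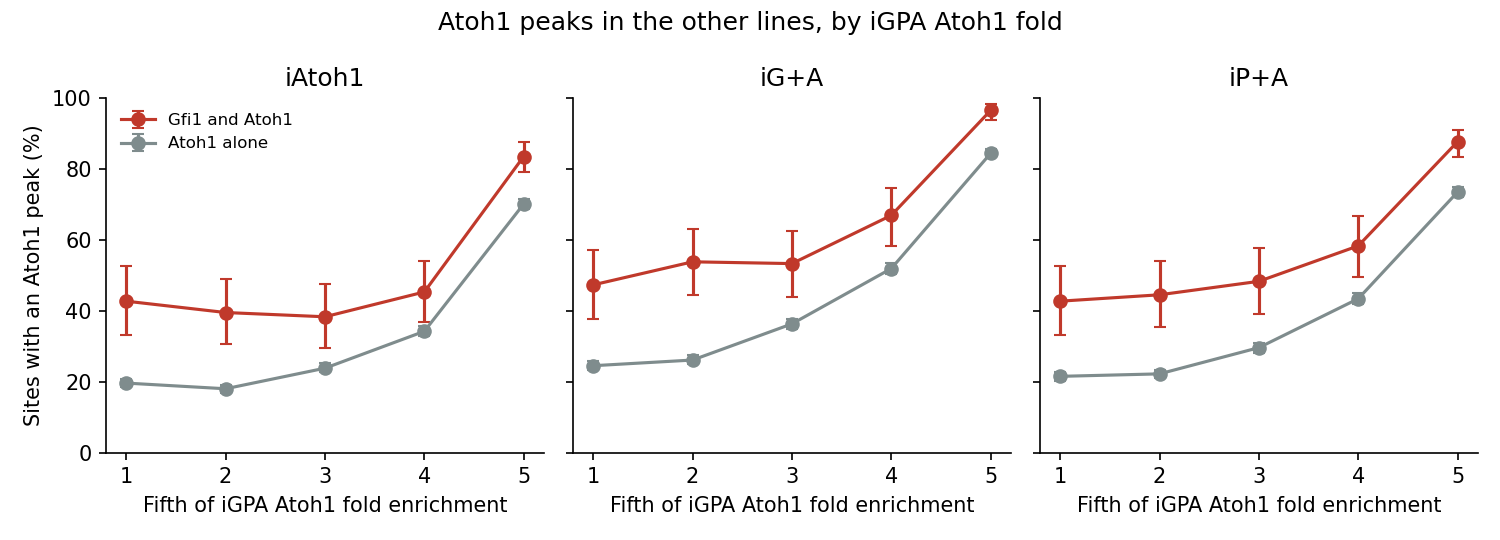
Percentage of sites with an Atoh1 peak in iAtoh1, iG+A and iP+A (y axes) by bin of the iGPA Atoh1 fold enrichment (x axis, 1 lowest to 5 highest), with exact 95% binomial intervals. The sites of Gfi1 and Atoh1 lie above Atoh1 alone in every bin and line, and both rise to the highest bin, where the iG+A values are 96.5% and 84.4%.

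The sites lacked a kept Pou4f3 peak in iGPA by definition, although 84 of them had one that was called and left out of the kept list, and some had a Pou4f3 peak in another line. In iPou4f3 there were 128, or 15.9%, in iG+P 192, or 23.9%, and in iP+A 137, or 17%, where 15.2%, 19.7% and 15.7% of all iGPA Atoh1 sites, those with Pou4f3 in iGPA included, had one. Atoh1 alone, which lacks Pou4f3 in iGPA by the same definition, had 9.04%, 12.3% and 7.79%. The sites with Gfi1 were higher by 6.88 percentage points (4.48 to 9.6), 11.6 (8.77 to 14.7) and 9.25 (6.78 to 12) in the same order. These peaks were low in iPou4f3, where the median one stood at percentile 30.2 of its list, and nearer the middle in iG+P, at 58.1, and iP+A, at 52.7. No Pou4f3 peak in any of these lines was found at 497 sites, 61.8%, against 79.2% of Atoh1 alone. All 3 lines had one at 33 sites, 4.1%, against 1.33% of Atoh1 alone. A peak in all 6 other lists was present at 14 sites and none in them at 57, for which no share of Atoh1 alone was computed.

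The spacing of the summits differed with the position in the genome. The Gfi1 and Atoh1 summits were a median of 47 bp apart (order-statistic 95% interval 42 to 53), with quartiles at 20 and 111 bp. Within 10 bp of each other lay 118 pairs of summits, 420 pairs or 52.2% lay within 50 bp, and 131 or 16.3% were more than 150 bp apart. At the 258 sites whose Gfi1 summit lay within 1 kb of a transcription start the median was 97 bp (83 to 110), and at the other 546 it was 36 bp (33 to 42). Near starts 33.3% of the pairs were over 150 bp apart, and 8.24% away from them.

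**Figure D4:**
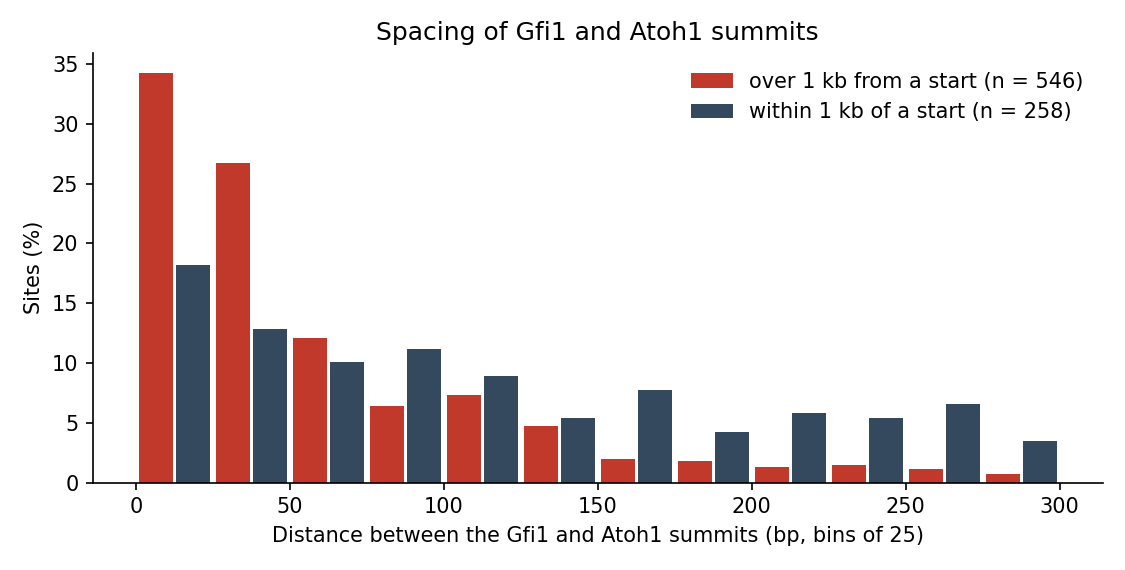
Distance between the Gfi1 and Atoh1 summits in bins of 25 bp (x axis) against the percentage of sites (y axis), for 258 sites within 1 kb of a transcription start and 546 farther away. Away from starts 34.2% of the sites fall in the first bin and 0.733% in the last, near starts 18.2% and 3.49%.

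The median spacing was also shorter where the Atoh1 fold was high. In the highest bin of Atoh1 fold the median spacing was 34 bp (30 to 39, quartiles 14.8 and 74.2), and in the lowest it was 84.5 bp (57 to 114, quartiles 30.5 and 172). The sites with all 3 factors had a median of 42 bp between Gfi1 and Atoh1, and the sites of Atoh1 and Pou4f3 without Gfi1 had 35 bp between those summits. The 257 sites whose Atoh1 summit was within 1 kb of a start had a median Atoh1 fold of 3.57, and the others 4.43. Just inside the limit of 300 bp were a site on chromosome 4 near the pseudogene Vmn2r-ps19, with 298 bp, and one in an intron of Pkm2, with 297 bp. Just outside were the Gfi1 sites nearest to Zc3h3, with an Atoh1 summit at 300 bp and a Gfi1 fold of 5.5, and to Cep55, with 301 bp and 4.3. Among the 1484 sites of Gfi1 alone, 31 had an Atoh1 summit within 350 bp and 107 within 500 bp.

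The DNA at the sites was then searched for the patterns of the factors, on both strands of the 250 bp around each summit and of 2 windows of the same length 1000 bp away. A match is only a description of the letters. The AtEAM pattern was present at the Gfi1 summit of 124 sites, 15.4% (13 to 18.1), against 2.11% of the flanks (1.47 to 2.94). At the Gfi1 summit of Gfi1 alone it was present at 1.68%, a difference of 13.7 percentage points (11.3 to 16.5) with the same sign on 19 of 19 chromosomes. The E-box hexamer CAGCTG, or CAGATG with its complement CATCTG, which AtEAM matches can contain, was present at 60.2% of the Gfi1 summits and 27.8% of the flanks. At the Atoh1 summit the AtEAM share was 17%, against 19.8% for Atoh1 alone, and the difference of -2.76 percentage points had an interval that reached 0 (-5.26 to 0.045). The hexamer was at 68.9% of the Atoh1 summits, against 74% for Atoh1 alone, lower by 5.14 percentage points with an interval that did not include 0 (-8.48 to -1.98). It was lower on only 11 of 19 chromosomes. Outside the 2 dense stretches described below, the shares were 73.2% (69.8 to 76.5) and 76.7% (76.1 to 77.3).

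The Gfi1 pattern was rarer at these sites than at Gfi1 alone, but it was above the flanks. It was present at 38 Gfi1 summits, 4.73% (3.37 to 6.43), with 0.498% in the flanks (0.215 to 0.978) and 9.91% at Gfi1 alone. The difference from Gfi1 alone was -5.18 percentage points (-7.24 to -2.97), on 15 of 19 chromosomes. The shorter AATCAC, which the Gfi1 pattern contains, was at 20.8% of the summits and 11.1% of the flanks, and at 29.6% of Gfi1 alone. Seen from the Atoh1 summit, AATCAC was present at 16.5% of the sites and at 6.35% of Atoh1 alone, higher by 10.2 percentage points (7.76 to 12.9) on 18 of 19 chromosomes. Atoh1 alone lacks a Gfi1 peak by definition, so this difference too is a description. Both the AtEAM and the Gfi1 pattern were present at 5 sites, among them those of Zc3h14 and Fam110b. The Pou4f pattern ATAATTAAT, with 1 mismatch allowed, was at 6.47% of the Gfi1 summits, 8.83% of the flanks and 31.5% of the sites with all 3 factors.

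**Figure D5:**
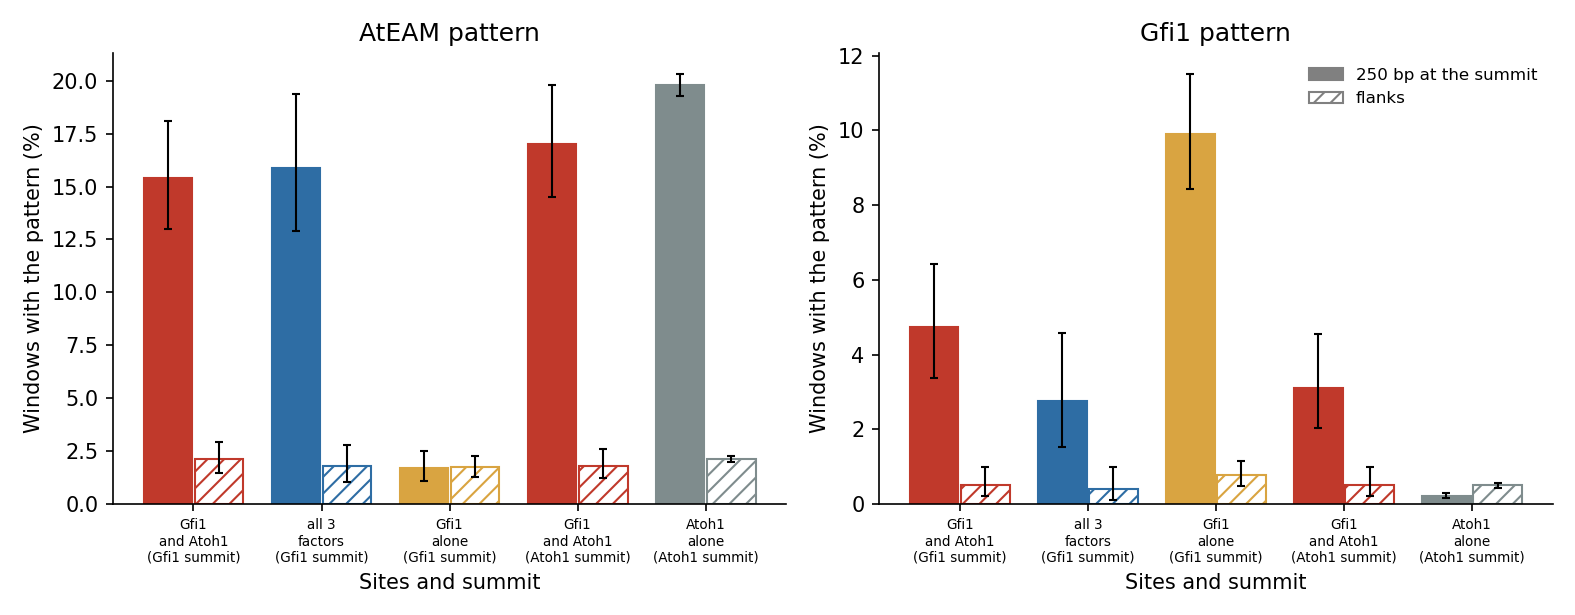
Percentage of 250 bp windows (y axes, which differ in scale) with the AtEAM pattern (left) or the Gfi1 pattern (right) at the summit (filled) and in flanks 1000 bp away (hatched), by group of sites and summit (x axis), with exact 95% binomial intervals. At the Gfi1 summit the sites of Gfi1 and Atoh1 have AtEAM at 15.4% and the Gfi1 pattern at 4.73%, and Gfi1 alone has 1.68% and 9.91%.

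By the median distance, though not at every site, each pattern lay nearer to the summit of its own factor. Over the 144 sites with AtEAM anywhere in the joined site, its median distance was 17 bp from the Atoh1 summit (13 to 21) and 46.5 bp from the Gfi1 summit (36 to 60). Over the 41 sites with the Gfi1 pattern, the distances were 80.5 bp (56.5 to 132) and 29.5 bp (19.5 to 49.5).

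The patterns also went with different presence in the other lines. Of the sites with AtEAM, 71.8% had an Atoh1 peak in iAtoh1, 87.1% in iG+A and 83.1% in iP+A, and 5.65%, 2.42% and 5.65% had a Pou4f3 peak in iPou4f3, iG+P and iP+A. With a hexamer at the Atoh1 summit (554 sites) the Atoh1 shares were 62.8%, 81% and 70.4%, and without (250 sites) they were 47.6%, 51.6% and 50.4%. The sites with the Gfi1 pattern had an iAtoh1 peak less often, at 36.8% against 59.1% without it, a difference of -22.3 percentage points (-36.2 to -6.04) that rests on 38 sites. In iG+A the same sites stood at 73.7% against 71.8% (a difference of 1.88 points, -14.1 to 13.7), and in iP+A, which has no Gfi1 transgene either, at 63.2% against 64.2% (-1.07 points, -17.3 to 12.8). Both of these intervals included 0. The printed sites of Oxr1 and Zc3h14 had Atoh1 folds of 5.34 and 5.87 in iG+A and no Atoh1 peak in iAtoh1 or iP+A. The printed Ankrd40 site had 4.81 in iG+A, 2.9 in iP+A and no Atoh1 peak in iAtoh1. These are single examples. Of all 38 sites with the Gfi1 pattern, 14 had an Atoh1 peak in iAtoh1, 28 in iG+A and 24 in iP+A. Of the 5 with both patterns, 2 had one in iAtoh1, 5 in iG+A and 3 in iP+A.

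In the genome, 258 of the 804 sites or 32.1% (28.9 to 35.4) lay within 1 kb of a transcription start, fewer than Gfi1 alone with 43.4% and more than the sites of all 3 factors with 17.7%. By the Atoh1 summit the share was 32%, against 27.8% of Atoh1 alone, a difference of 4.15 percentage points (0.961 to 7.51). Intergenic DNA held 43.7% of the Gfi1 summits, introns 41.8%, untranslated exons 7.34% and coding exons 4.85%. More than 50 kb from any start were 102 sites, 12.7%. Short tandem repeats held the Gfi1 summit at 6 sites, 0.746%, against 136 of Gfi1 alone, 9.16%.

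The sites near starts differed from the rest in which lines they were found. By the Atoh1 summit, 257 sites were within 1 kb of a start, and 43.6% of them had an Atoh1 peak in iAtoh1 (37.4 to 49.9), 53.3% in iP+A (47 to 59.5) and 71.2% in iG+A (65.3 to 76.7). The 547 others had 64.9% in iAtoh1, 69.3% in iP+A and 72.2% in iG+A. Where iG+A and iAtoh1 disagreed, iG+A had the peak at 88 sites near starts and iAtoh1 at 17, so that iG+A held 83.8% (75.3 to 90.3). Away from starts the numbers were 94 and 54, or 63.5% for iG+A (55.2 to 71.3). At Atoh1 alone the corresponding shares were 73.7% near starts (71.6 to 75.7) and 68.4% away (66.9 to 69.8). Split by the Gfi1 summit instead (258 sites and 546), the sites within 1 kb had AtEAM at the Gfi1 summit at 6.98% and the others at 19.4%. A Pou4f3 peak in iPou4f3 was found at 28.7% of these 258 and at 9.89% of the 546.

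A part of the sites was packed into 2 stretches of the genome. On chromosome 14 from 3 to 9 Mb there were 61 sites and on chromosome 4 from 145 to 147 Mb 33, whereas no other bin of 1 Mb held more than 5. These 94 sites, 11.7% of the total, lay among predicted gene models such as Gm3667, Gm3696, Gm3739 and Gm13230, each nearest to 3 or 4 sites, and the same stretches held 5.83% of Atoh1 alone and 3.91% of Gfi1 alone. Their local background was raised, with a median of 6.75 fragments for Gfi1 against 3.55 elsewhere and 10.7 for Atoh1 against 7.13. Their folds were low, with medians of 3.2 for Gfi1 and 3.09 for Atoh1, and AtEAM was at 2 of them, 2.13%, against 17.2% elsewhere. Whether near-identical copies of DNA contributed to these peaks was not tested.

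The presence in other lines ran in a different order there. In the 2 stretches 68.1% of the sites had an Atoh1 peak in iAtoh1, 47.9% in iG+A and 58.5% in iP+A, and 62.8% had a Pou4f3 peak in iG+P. At the other 710 sites the Atoh1 shares were 56.8%, 75.1% and 64.9%, and the iG+P Pou4f3 share was 18.7%. Within chromosomes, the sign of the difference held on 2 of 2 for iG+A and on 1 of 2 for iAtoh1 and iP+A. Atoh1 alone in the 2 stretches had Atoh1 peaks at 46.6%, 45.3% and 40.4%, against 31.5%, 43.6% and 37% outside. Its iG+P Pou4f3 share was 49.6% there and 9.95% outside, so the stretches differed for Atoh1 alone too. Without the 2 stretches the excess over Atoh1 alone was 25.2 percentage points in iAtoh1, 31.5 in iG+A and 27.9 in iP+A. Genes nearest to 3 or more sites were otherwise Gm7352 and Prl2c3, with 3 each, and the names U6, with 8, and SNORA17, with 3, which belong to loci on several chromosomes. Outside the 2 stretches the sites were scattered, with a median of 703 kb to the next site and 113 of 709 sites within 100 kb of another.

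Genes were assigned to a site by the nearest transcription start, which does not show that the gene is controlled from there. Over all 33924 annotated genes, 735 or 2.17% were nearest to one of the 804 sites, and 32% to a site of Atoh1 alone. By protein-coding starts only, 723 of 22238 genes or 3.25% were nearest to one. Of 32 Notch pathway genes 2 were nearest to one of the sites, of 25 proneural bHLH genes and their partners 3, of 57 hair cell genes 2, of 52 neuronal genes 5 and of 71 axon guidance genes 4. Of 32 partners and blood targets of Gfi1 there were 2, of 21 pluripotency regulators 1, and of 26 Sox and otic regulators and 39 Hox genes none. By the nearest protein-coding start the neuronal list had 7 genes, axon guidance 6, the Notch pathway 3 and the proneural list 4, and the other lists had the same numbers. In percent, by all starts, the 9 lists stood at 6.25, 12, 3.51, 9.62, 5.63, 6.25, 4.76, 0 and 0 in the order first given. For sites of Atoh1 alone they stood at 81.2, 56, 54.4, 57.7, 67.6, 65.6, 42.9, 61.5 and 5.13. All of these but the Hox genes were above the 32% of all genes, so raised shares were found for Atoh1 alone as well. The lists are short, and no enrichment was tested.

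The Notch genes were Notch1, the receptor, and Hes6, an atypical member of the Hes family that is induced by proneural factors. In an intron of Notch1 (chr2:26342336-26342637) the Gfi1 peak had a fold of 12.2 from 58 fragments and the iGPA Atoh1 peak 19.4 from 157, with summits 2 bp apart. Atoh1 had peaks there in iAtoh1 (8.06), iG+A (16.2) and iP+A (6.68), and the window holds the 2 AtEAM matches printed above. The Hes6 site (chr1:93310660-93311133), 369 bp upstream of the start, had a higher Atoh1 peak of 28.8 and a lower Gfi1 peak of 5.28, with the summits 174 bp apart. It had Atoh1 folds of 15.3, 25.4 and 20.7 in the same lines.

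The proneural group held a bHLH factor and 2 inhibitors. Atoh8, a relative of Atoh1, had an intronic site (chr6:72166776-72167089) with a Gfi1 fold of 6, an iGPA Atoh1 fold of 21.3 and Atoh1 folds of 13.4, 19.4 and 13.1 in iAtoh1, iG+A and iP+A. Id1 and Id3 encode proteins that bind E proteins and keep bHLH factors from DNA. The Id1 site (chr2:152549631-152549974), 12162 bp upstream, had AtEAM, a Gfi1 fold of 3.95 and an Atoh1 fold of 23.9, and Atoh1 folds of 13.8, 21.5 and 11.6 in the other lines. The Id3 site (chr4:135699679-135700099), in a coding exon, was weak in both, with 3.3 and 3.08, and had no Atoh1 peak in iAtoh1.

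The 2 hair cell genes were Srrm4, a splicing regulator needed in hair cells and neurons, and Rfx3, a regulator of cilium genes. Srrm4 (chr5:117021210-117021516, intron) had a Gfi1 fold of 5.4 and an Atoh1 fold of 10.8 with summits 7 bp apart, and Atoh1 folds of 6.84, 7.21 and 8.5 in iAtoh1, iG+A and iP+A. Rfx3 (chr19:28084356-28084677, intron) had 3.91 and 3.33, and an Atoh1 peak in iG+A only (4.54). Among neuronal genes, the transcription factor Ebf2 had the highest Gfi1 fold, 7.7, with an Atoh1 fold of 5.29 at a distance of 3 bp and another Atoh1 peak in iG+A only (5.87). Tubb3, a neuronal tubulin, had 5.5 and 11.3 with Atoh1 folds of 6.47, 3.6 and 8.71, and Nrxn3, a synaptic adhesion protein, had 5.28 and 4.06 with no Atoh1 peak in another line. Across these lists the presence of Atoh1 thus ran from no other line, as at Nrxn3, to all 3, as at Srrm4.

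The remaining lists gave these values. Mycn, a growth regulator of the Myc family, had a Gfi1 fold of 5.28 and an Atoh1 fold of 2.83, 97 bp upstream of its start and with the summits 260 bp apart, and Csf1, the macrophage growth factor, had 4.18 and 3.55. Tbx3, a T-box factor, had 3.3 and 4.06. The axon guidance sites with the highest Gfi1 fold were nearest to the semaphorin receptor Plxna2, 396586 bp away, with 6.16 and 5.17, to the Robo ligand Slit1, with 4.18 and 5.54, and to the netrin receptor Neo1, with 3.75 and 3.18.

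By Gfi1 fold outside repeats, the first 10 sites were a mixture of promoters and distal elements. The highest, 18.9 from 85 fragments, lay in an intron of Rab38 (chr7:95604114-95604427), with an iGPA Atoh1 fold of 8.74. Next was a site 115 bp upstream of Cdc42bpb (chr12:112615813-112616193) with a Gfi1 fold of 18.5, an Atoh1 fold of 3.06 and no Atoh1 peak in another line. Chd7, a chromatin remodeller whose loss affects the inner ear, had an intronic site (chr4:8726566-8726953) with 15 and 9.84 and Atoh1 folds of 3.91, 9.35 and 5.16 in iAtoh1, iG+A and iP+A. At the promoter of Kifap3 the Gfi1 and Atoh1 folds were 15.2 and 2.95, at that of Ankrd40 14.2 and 4.65, and in an untranslated exon of Brd2 13.6 and 3.44, so that the Atoh1 fold was below the median of the 804 sites at Kifap3 and Brd2 and above it at Ankrd40. At Oxr1 the folds were 16.5 and 8.98, at Gm5567 13 and 12.2, and near SNORD93 13.8 and 4.18. Inside repeats the Gfi1 folds of 112 near Cntnap3 and 40.6 near Tle3, both with the unit aaagc, stood beside Atoh1 folds of 3.08 and 3.2, and an intron of Elavl3 followed with 6.16 and 3.57.

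The sites in every Atoh1 list and those in iGPA only are illustrated by the 5 of each with the highest Gfi1 fold outside repeats. Besides Chd7, SNORD93, Gm5567 and Notch1, the first 5 in every list included a site 22436 bp upstream of the potassium channel gene Kcnk9, with a Gfi1 fold of 11.7, an Atoh1 fold of 8.98 and summits 5 bp apart. The first 5 found in iGPA only were Cdc42bpb, an intron of Adamts3 (11.9 and 4.18, with the Gfi1 pattern), Gcat (10.3 and 2.71), 3110056K07Rik (9.8 and 2.83) and Taf15 (8.8 and 3.08). Over all members the summits were a median of 37 bp apart at the 342 sites in every list (quartiles 17 and 84.8) and 69 bp at the 95 sites in iGPA only (32 and 150), so the distances overlapped. Of the 95, 38 lay within 1 kb of a start, which is 14.7% of the 258 sites there (10.6 to 19.7). The other 57 were 10.4% of the 546 sites farther away (8 to 13.3), so these intervals overlapped.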

How the data were processed

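ChIP-seq peak lists of 9 combinations of line and antibody were analysed. As the study's methods state, reads were trimmed with Trimmomatic, aligned to mm9 with Bowtie 2 and cleared of duplicates and poorly mapped reads. MACS 2 was then run by the authors on the pooled ChIP replicates of a group, with the pooled inputs as control. The deposited fold enrichment is the authors' ratio at the summit over the local background, and the deposited −log10 p is that of the peak caller. The deposited summit lists name the kept peaks, 3012 of 3838 for Gfi1 and 26231 of 31697 for iGPA Atoh1, by a filter not given in the sources used here. They also hold a deposited signal column, which the authors do not define and which was not used. Total read counts were not used, and the depth of a peak was taken as the fragments that gave both its fold and its −log10 p within 0.001.

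Groups came from the sample titles. The site rule, gene lists and patterns were chosen with earlier results of these data known. Sites were joined in Python 3.11.15 with pandas 2.3.3 and SciPy 1.17.1, and the steps were tested on simulated data. A peak of another line was counted where its 300 bp window met that of the site's Atoh1 summit. Shares have exact Clopper-Pearson intervals, differences Newcombe intervals and medians order-statistic intervals. The sign of a difference was counted over chromosomes with 10 or more of the sites. Starts and placements were those of GENCODE vM1 on NCBIM37. A summit was placed in a tandem repeat when at least 80% of the 100 bp around it equalled the base 1 unit further on, for units of 1 to 12 bp.

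Named were, by Gfi1 fold, the first 3 sites of each gene list, the first 10 outside and 3 inside repeats on chromosomes other than 18 and Y, the first 5 with Atoh1 in every list and in iGPA only, genes nearest to 3 or more sites, and the pairs nearest to the distance limit. The dense stretches were defined after the data were seen, as bins of 1 Mb with at least 7 sites. Alternatives were a −log10 p of at least 10, other windows, every called peak, sites outside repeats, autosomes, each chromosome left out, other patterns and summits, 5 kb or protein-coding starts, and bins of fold. Added after seeing the data were sites outside the dense stretches, sites without a raised Gfi1 background, a search of the whole site and protein-coding starts for the gene lists.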

Additional observations from a re-analysis of the deposited data

Results flagged for a closer look

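Peaks that had been called but were left out of the kept lists form data that no comparison above used, and some met the 804 sites. In iGPA such a Pou4f3 peak was present at 84 sites, 10.4% (exact 95% interval 8.42 to 12.8), against 2.59% of Atoh1 alone (2.38 to 2.82), so that these sites had been called for Pou4f3 although the kept list has no peak there. Outside the dense stretches on chromosomes 14 and 4 the share was 6.48% (4.78 to 8.55), against 1.79% (1.61 to 1.98). A left-out Atoh1 peak and no kept one was present at 49 of all 804 sites in iAtoh1 (6.09%, against 4.6% of Atoh1 alone). The numbers were 61 in iG+A (7.59% against 4.53%) and 67 in iP+A (8.33% against 4.7%). Outside the dense stretches these shares were 4.23% against 3.28% in iAtoh1, 3.1% against 3.17% in iG+A and 5.21% against 3.28% in iP+A. These shares, like those for Pou4f3 that follow, are of all sites, including those with a kept peak. In iG+A outside the stretches, 533 of 710 sites had a kept Atoh1 peak, against 8688 of 19938 of Atoh1 alone. The shares among sites without a kept peak were not computed, so these values do not show whether such sites differed. Left-out Pou4f3 peaks were present at 51 sites in iPou4f3 (6.34% against 3.02%), 53 in iG+P (6.59% against 3.82%) and 86 in iP+A (10.7% against 5.4%), and outside the dense stretches 4.93% against 2.46%, 3.52% against 2.68% and 7.18% against 3.69%. With them, 64.2% of the sites had a called Atoh1 peak in iAtoh1, 79.5% in iG+A and 72.5% in iP+A. The dense stretches held 10.8% to 27% of the left-out peaks of each list, and what the filter removed there was not tested.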

How the results depend on the processing

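Of 101 recomputed values, 77 stayed within the interval of the reported value, or within 1.5 times the number of sites. Only the iAtoh1 difference from Atoh1 alone could change sign, and it did not. Windows of 100 bp left 600 sites and moved the median spacing to 30 bp, the share near a start to 23.7% and AtEAM to 20.5%. Windows of 1000 bp gave 906 sites, with 75.5% in iG+A, 69.1% in iP+A, a spacing of 70 bp and 37.4% near a start. With all called peaks there were 922 sites, and the Atoh1 shares were 66.5% in iAtoh1, 79.8% in iG+A and 71.5% in iP+A. A −log10 p of at least 10 in every list left 252 sites, with 48.8% in iAtoh1, 75% in iG+A, an iAtoh1 difference from Atoh1 alone of 21.8 percentage points, a spacing of 31 bp, 21.8% near a start and AtEAM at 23.8%. Without chromosome 14 the iG+A share was 75.1%, and without both dense stretches it was also 75.1%. A start within 5 kb was found for 47.3% of the sites. The E-box hexamers raised 15.4% to 60.2%, AATCAC raised the Gfi1 pattern from 4.73% to 20.8%, and around the Atoh1 summit the Gfi1 pattern stood at 3.11%. Within bins of the Atoh1 fold the iAtoh1 difference was 15.7 percentage points. Windows, the limit on −log10 p and the patterns change by construction which sites or letters count, and the cause of the other shifts was not tested. The share in the iAtoh1 list was above that of Atoh1 alone in each of these settings in which the difference was recomputed.

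No paired analysis was possible because the Gfi1 list comes from 1 library and every other list from merged replicates, and for the same reason no replicate was left out. Gfi1 rests on 1 library whose usual background was 3.55 fragments, which limits the detection of weak Gfi1 sites, and how many were missed was not tested. Adjacent sites share libraries and DNA, which no interval takes into account.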
